A study of Mus musculus with 6 samples.

Results

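The 389 sites described here are putative RNA G-quadruplex (rG4) motifs of mouse transcripts whose guanine tracts are joined by at least 1 long loop and which lie in 3′ untranslated regions (3′ UTRs). They were taken by annotation alone, as every site that the deposited tables class as long-loop and place in the 3′ UTR and in no other transcript region. They are 7.02% of the 5538 sites listed, 14% of the 2775 sites in 3′ UTRs and 57% of the 683 long-loop sites, and they fall in 327 genes. Among the sites of all other classes, 49.1% lie in 3′ UTRs. RT stops were mapped by rG4 RT-stop DMS-seq in chromatin-bound poly A+ RNA of mouse embryonic stem (ES) cells, with 2 samples each from undifferentiated cells (day 0) and from embryoid bodies on day 3 and day 7 of differentiation. Each of the 2 day 7 samples also has a table of RNA treated in vitro. All groups share 1 line, the clonal TsixTST/+ line of source 129S1/CastEiJ x 129S1, labelled genotype WT and treatment None, so every comparison is between states of 1 clone. Day 0 cells grew on inactivated feeder cells with LIF. Day 3 cells were embryoid bodies in suspension, feeder-depleted and without LIF, and day 7 cells were embryoid bodies that had been attached to gelatin after day 3. The cells were treated with DMS at 4% v/v, and each RNA was reverse transcribed in K+ and separately in Li+. What was done to the RNA in vitro is not described in the sample labels.

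In an rG4, guanines from each of 4 tracts stack as quartets around a central cation. K+ stabilises the stack and Li+ does not, so reverse transcriptase entering from the 3′ side stops at a folded motif in K+ and reads through in Li+. DMS methylates the N7 of guanines that are not held in a quartet, and a methylated tract can no longer fold during the later reaction in K+. A K+ stop in DMS-treated RNA is therefore read as a motif that was folded in the cell, and a K+ stop in RNA without that treatment as a motif able to fold. Long loops are known to make quadruplexes less stable, and loops of 1 base to make them more stable. 3′ UTRs hold sites for RNA-binding proteins and miRNAs that set mRNA stability, translation and localisation.

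The motifs below are those whose values recur in the results. They are printed 5′ to 3′ in the sense of the RNA with T for U, the 4 guanine tracts in capitals and the loops in lower case. Coordinates are in the GRCm38 (mm10) assembly, given from the deposited motif positions. The first 5 had the highest K+ stop shares in vitro, and the next 2 were among the 5 lowest.
Arrb1 (chr7:99601479-99601503, plus strand): GGGGagcagaaaGGGGaGGGtGGGG
Prr12 (chr7:45028038-45028063, minus strand): GGGcgtgtggtgttGGGtGGGaGGGG
Eif4e2 (chr1:87240149-87240177, plus strand): GGGGattgcGGGaGGGGaaagagcaGGGG
Sfrp1 (chr8:23447098-23447121, plus strand): GGGatagctaaGGGtttGGGtGGG
Hmox1 (chr8:75100489-75100515, plus strand): GGGGctatcttttgaGGGGtGGGtGGG
Igfbp2 (chr1:72852379-72852407, plus strand): GGGcactGGGtacaggcctGGGaatGGGG
Tcf3 (chr10:80409998-80410025, minus strand): GGGctctGGGGacacttcaGGGcctGGG
The next 5 had among the largest falls of the K+ signal in day 7 cells against RNA in vitro.
Rab5c (chr11:100715937-100715963, minus strand): GGGccaccactGGGGGcaGGGGaaGGG
Pip4k2c (chr10:127197281-127197304, minus strand): GGGtgcccggttGGGGtGGGtGGG
Septin9 (chr11:117360738-117360760, plus strand): GGGtGGGcGGGGctaagcctGGG
Hnrnpa1 (chr15:103245209-103245236, plus strand): GGGttgtGGGtGGGtgttgcttttGGGG
Thoc3 (chr13:54458891-54458915, minus strand): GGGaGGGtagcagcataGGGatGGG
The last 6 differed in reads between day 7 and day 0.
Arl4c (chr1:88700580-88700606, minus strand): GGGgGGGGatacccgaaaGGGGacGGG
Mapkapk2 (chr1:131054363-131054392, minus strand): GGGcaGGGGaggcagtgaGGGGttGGGGGG
Serpinh1 (chr7:99345612-99345640, minus strand): GGGagctGGGagacagtgcatGGGaGGGG
Amot (chrX:145449900-145449927, minus strand): GGGGtgaagataGGGtGGGGaggtGGGG
Mlf2 (chr6:124935887-124935915, plus strand): GGGttttGGGGaaagctctGGGtttaGGG
Bax (chr7:45461731-45461757, minus strand): GGGaGGGGtGGGaatggtggcctGGGG
The 5 motifs with the highest in vitro shares each carry at least 1 loop of a single base, and the 2 low motifs printed here carry none. The motif of Erf, also among the 5 lowest but not printed, does carry 1 such loop. Such loops were common, and 125 of the 311 members measured in vitro had none.

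Most members had 1 loop just beyond the limit of the canonical class, which allows loops of up to 7 bases. The longest loop ranged from 7 to 21 bases with a median of 11. It measured 8 to 12 bases in 279 members and 13 to 21 bases in 108, while 2 members had no loop above 7 bases and so did not meet the class name by this reading of their tracts. The longest loop was the first (5′) loop in 120 members, the central loop in 180 and the last (3′) loop in 80, with a tie in 9. Of the 108 with 13 or more bases, 102 had that loop in the centre. A single loop above 7 bases was present in 355 members and 2 such loops in 32. The bases of the longest loops were 28.3% A, 18.6% C, 26.2% G and 26.9% T. Whole motifs ran from 23 to 44 bases with a median of 31, against medians of 23 bases for canonical, 26 for bulged and 21 for two-quartet motifs in 3′ UTRs.

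**Figure D1:**
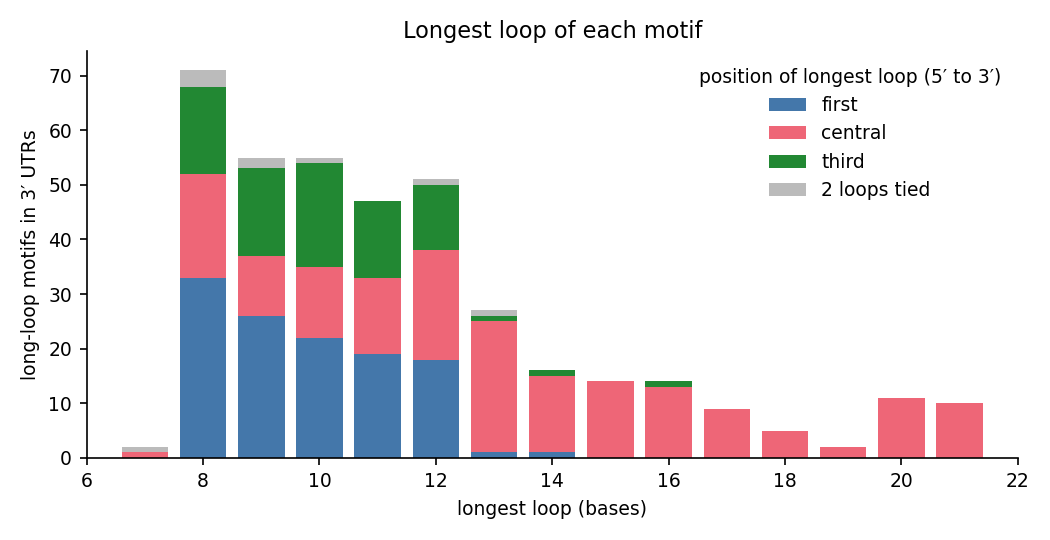
Number of the 389 motifs (vertical axis) by length of the longest loop in bases (horizontal axis), coloured by whether that loop is the first, central or last, or tied. Lengths of 8 to 12 bases hold 279 motifs, and loops of 13 or more bases are central in 102 of 108.

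The members were not all separate places. In 274 genes there was 1 member, in 48 genes 2 and in 5 genes 3 or more, of which Fbxl19 had 5. Motifs that overlap on 1 strand formed 356 groups, of which 324 held a single member, and 147 members (37.8%) overlapped a motif that the tables list under another class. The median distance of a member to the 3′ end of its gene in the RefSeq annotation (387 members with a matched symbol) was 803 bases, with quartiles of 259 and 1643 bases. The medians for canonical, bulged and two-quartet motifs in 3′ UTRs were 699, 639 and 745 bases. A stop was listed at 1 position in 178 members and at 2 positions in 166, most often at the last base of the motif (171 members) or the base after it (142 members).

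The depth behind these sites differed widely between tables. K+ reads over the members numbered 6631 to 60961 in the 6 cell samples, or 1.12 to 2.38% of the K+ reads over all sites, against 112443 and 144378 in vitro. The members with 20 or more K+ reads numbered 90 to 331 in the cell samples and 374 and 383 in vitro, and the tables list no coverage of 1 to 5 reads, so a listed 0 means at most 5 reads for 1 cation. The summed level of 7 markers with a listed site (among them Pou5f1, Sox2 and Esrrb) was 1593 and 1547 CPM (reads scaled to library size) in day 0 cells, 1506 and 1575 CPM in day 3 cells, and 550.9 and 639.3 CPM in day 7 cells. Lin28a and Sall4 of this list were not lower on day 7. Lin28a had 172 and 211 CPM in day 0 cells, 174 and 249 CPM in day 3 cells, and 346 and 260 CPM in day 7 cells, and Sall4 had 9.76 and 0 CPM in day 0 cells, 15.8 and 13.2 CPM in day 3 cells, and 11.7 and 19.7 CPM in day 7 cells. The 6 measured markers of differentiating cells summed to 13.9 and 0 CPM (day 0), 181.6 and 139.2 CPM (day 3), and 3216 and 1607 CPM (day 7). Most of these sums was the imprinted RNA H19, with 13.9 and 0 CPM (day 0), 170 and 112 CPM (day 3), and 2740 and 1120 CPM (day 7), while Krt8, Krt18, T and Sox11 were listed at 0 before day 7. Of 9 feeder fibroblast markers only Fn1 and Col1a1 had sites. Col1a1 was listed at 0 in every day 0 and day 3 sample, and the sum of the pair lay between 25.6 and 93.31 CPM in all 6 samples.

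Long-loop motifs in 3′ UTRs stopped reverse transcriptase in K+ in vitro about as often as bulged and two-quartet motifs there, and less often than canonical motifs. The 311 members with 50 or more K+ reads in both in vitro tables had a median stop share in K+ of 50.86%, the share of reads over the site that end there. The medians of the 2 tables were 48.4% and 51.6%. The median in Li+ was 6.19%. Canonical motifs had 57.72% in K+ and 9.7% in Li+ (519 sites), bulged motifs 50.74% and 5.73% (712 sites) and two-quartet motifs 50.2% and 5.29% (354 sites). Long-loop motifs outside 3′ UTRs had 46.52% and 5.19% (167 sites), and the median of all sites in K+ was 48.24% (3855 sites). Here and below, that set is every long-loop site not placed in the 3′ UTR alone. It can include sites placed in the 3′ UTR of some transcripts. The members spanned 12.21% to 96.5%, with quartiles of 37.62% and 69.0%, and 160 of 311 (51.4%) reached 50%. Every listed site had a higher share in K+ than in Li+ in both in vitro tables, which is a property of the list, so this difference was not tested. The 2 in vitro shares of a member followed each other closely across members (Spearman correlation 0.92 and Pearson r 0.93, n = 311 motifs, which share 2 RNA preparations).

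K+ shares in vitro were ordered by the number of loops of 1 base. Members with 2 loops of 1 base had a median of 60.66% (42 motifs), those with 1 such loop 55.56% (144 motifs) and those with none 41.27% (125 motifs). The order held in each table on its own, at 62.3%, 53.6% and 40% in the first and 65.5%, 56% and 43.8% in the second. Long-loop motifs outside 3′ UTRs did not give the same order at the top. There, motifs with 2 loops of 1 base had 50.1% and 50.9% in the 2 tables, those with 1 had 50.6% and 55.7%, and those with none 42.3% and 46.7%. The total length of the 3 loops was related to the in vitro share more closely (Spearman -0.40, Pearson r -0.38) than the length of the longest loop (Spearman -0.16, r -0.15; n = 311 motifs for both). In Li+ the member medians in vitro fell in the same order with 2, 1 and no loops of 1 base. They were 14.9%, 6.9% and 4.76% in the first table, and 10.7%, 5.35% and 4.65% in the second (20 or more Li+ reads). These are descriptions across motifs that share libraries, some of which overlap.

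**Figure D2:**
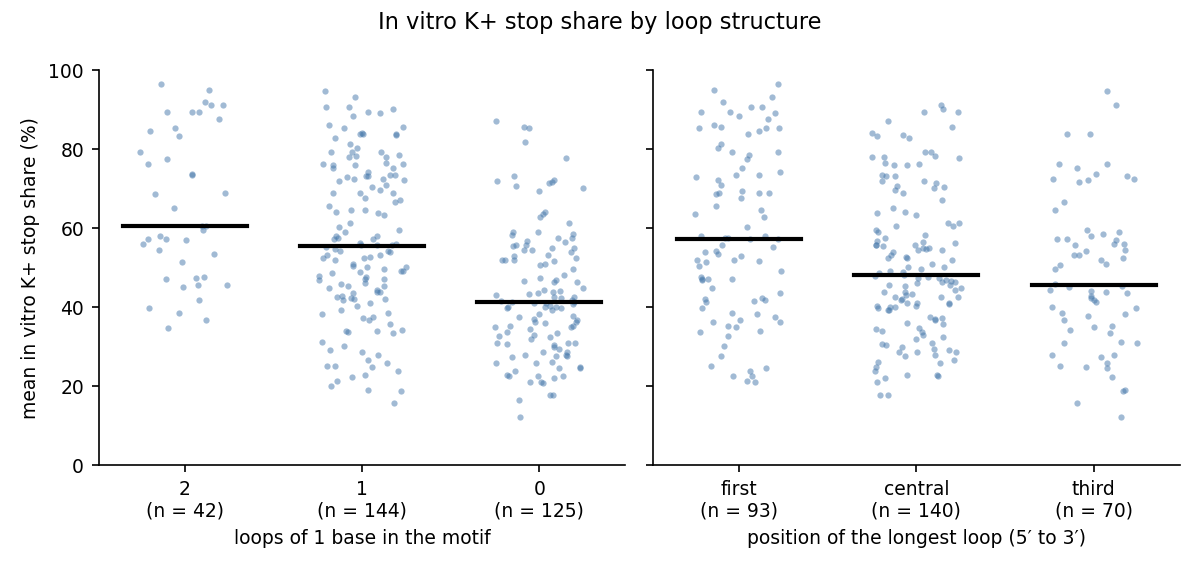
Mean in vitro K+ stop share in percent (vertical axis) of the 311 members with 50 or more K+ reads in both tables, grouped by the number of 1-base loops (left) and, where no loops tie, by the place of the longest loop (right). Each point is a motif and the bars are medians. On the left they step down from 60.66% with 2 loops of 1 base to 41.27% with none. On the right they are 57.44% with the longest loop first and 45.53% with it last, and central and last changed order between the 2 tables.

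The median in vitro shares also differed by the length and the place of the longest loop. Length and place were tied, since 102 of the 108 longest loops of 13 or more bases were central. Medians were 54.75% for a longest loop of 7 to 9 bases (102 motifs), 52.58% for 10 to 12 bases (130 motifs) and 45.69% for 13 to 21 bases (79 motifs). With the longest loop first the median was 57.44% (93 motifs), with it central 48.14% (140 motifs) and with it last 45.53% (70 motifs). Per table the first place was highest (58.8% and 57.6%), but central and last changed order, with 46.8% and 50.8% for central and 48% and 46.4% for last. By length, loops of 13 or more bases had 41.9% and 49.2% in the 2 tables and shorter ones 51.6% and 53.7%. Outside 3′ UTRs that difference was not seen, with 45.3% and 51.7% for 13 or more bases and 46.3% and 50.4% for shorter ones. The 28 measured members with 2 long loops had a median of 32.42%, against 51.99% for the 283 with at most 1. Nor was the contrast by number of long loops seen there, with 45.5% and 53% in the 2 tables for motifs with more than 1 long loop, against 45.9% and 50% for the rest. Members that overlap a motif of another class had 45.79% (123 motifs), against 53.15% for those that do not (188 motifs).

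The 5 members with the highest in vitro shares lay in Arrb1, Prr12, Eif4e2, Sfrp1 and Hmox1. Arrb1, which encodes a β-arrestin of receptor signalling, had 64 stops in 68 K+ reads and 89 in 90, or 94.1% and 98.9%. Prr12 had 92.4% and 97.9%. Eif4e2, which encodes a cap-binding protein that represses translation, had 94.5% and 94.9%, from 128 and 158 K+ reads. In Sfrp1, a secreted antagonist of Wnt signalling, the shares were 93.6% and 92.9%. Hmox1, the stress-induced haem oxygenase, had the deepest coverage of the 5, with 844 stops in 933 K+ reads (90.5%) and 762 in 816 (93.4%). Its Li+ shares, 39.9% and 28.1%, were also well above the median of all members in Li+. Over the 6 cell samples the motifs of Arrb1, Prr12 and Sfrp1 had 27, 70 and 63 reads, that of Eif4e2 376 and that of Hmox1 1999.

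The 5 lowest lay in Foxo4, Erf, Ddb1, Igfbp2 and Tcf3, and they were chosen by rank as the highest were. The Foxo4 motif, in a forkhead transcription factor gene, had 10.7% and 13.7%, and that of Erf, an ETS-domain repressor, 13.3% and 18.4%. Ddb1, the adaptor of the CUL4 ubiquitin ligase, had 17.2% and 16.0% from 4688 and 6637 K+ reads. Igfbp2, a secreted binder of insulin-like growth factors, had 16.8% and 18.6% from 4602 and 5262 K+ reads. Tcf3, the E2A transcription factor gene, had 17.0% and 18.7%. Li+ shares of these 5 were between 0.0% and 5.36% in each table, so K+ stayed above Li+ even here.

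Overlapping members could differ severalfold in vitro although they share bases and reads. In Map4, which encodes a microtubule-associated protein, a motif of 24 bases had 61.8% and 82.9%, against 20.5% and 24.4% for one of 44 bases with the same 5′ end. In Arpc4, a subunit of the Arp2/3 complex, the motif of 25 bases had 72% and 78.8% and the one of 32 bases 31.2% and 29.8%. In Mta2, a subunit of the NuRD complex, the order was the other way, with 59.1% and 60.4% for the motif of 36 bases and 30.3% and 21.4% for the one of 31 bases. Of 20 overlapping pairs of unequal length with enough reads, the shorter motif was higher in both tables in 10, the longer in 7, and the ranges overlapped in 3. Map4 and Arpc4 were picked for this contrast after their values were seen.

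In cells the K+ stop shares of the members were far lower and their excess over Li+ differed between replicates of 1 day. Pooled over all 389 members, the K+ and Li+ shares were 2.91% and 3.30% in the first day 0 sample and 2.56% and 4.53% in the second. They were 8.10% and 2.70%, and 3.85% and 2.31%, in the 2 day 3 samples. On day 7 they were 6.37% and 3.67% in the first sample and 3.84% and 4.10% in the second. In vitro the pooled shares were 50.2% and 9.04%, and 49.5% and 7.93%. K+ exceeded Li+ in both day 3 samples and in 1 of 2 day 7 samples, and in neither day 0 sample. Pooled bulged and two-quartet motifs in 3′ UTRs gave the same pattern. Canonical motifs there differed from it only in the second day 7 sample, where K+ was also above Li+. The 95% exact binomial intervals of these pooled shares were at most 1.33 points wide and cover counting error only. An exact permutation test of 2 against 2 samples cannot give a p below 0.333, so the pooled shares were not tested between days. Canonical motifs in 3′ UTRs had higher pooled K+ shares in every sample, 10.8% and 6.80% on day 7. In the second day 0 sample the gap was small, 2.65% beside 2.56%, and the intervals overlapped. Their Li+ shares were also higher in every cell sample, 5.24% and 5.89% on day 7.

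**Figure D3:**
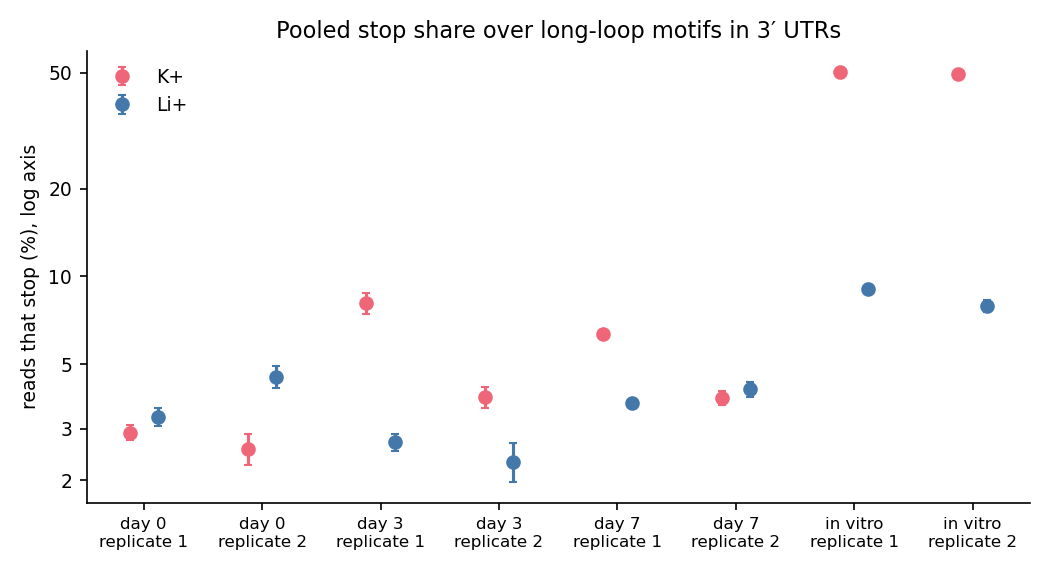
Pooled stop share in percent on a log axis (vertical) of the 389 members in K+ and in Li+ for each of the 6 cell samples in day order and the 2 in vitro tables (horizontal). Points are pooled shares and whiskers 95% exact binomial intervals. K+ stands above Li+ in both day 3 samples, in the first day 7 sample (6.37% and 3.67%) and, far higher, in both in vitro tables.

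Site by site the same split between replicates appeared. Among members with 20 or more reads for both cations, the K+ share was above the Li+ share in 85 of 205 and 28 of 103 on day 0, in 72 of 90 and 60 of 99 on day 3, and in 253 of 331 and 104 of 246 on day 7. K+ shares of a member in the 2 replicates of a day were weakly related on day 0 (Spearman 0.14, Pearson r 0.05, n = 116) and day 3 (Spearman 0.29, r 0.23, n = 87) and more closely on day 7 (Spearman 0.45, r 0.51, n = 277). The test of K+ against Li+ stop odds within a day (limma on log2 odds over the 847 sites that every library covered by at least 20 reads, Benjamini-Hochberg adjustment, threshold 0.05) covered 68 members and called none on day 0, day 3 or day 7. Over all sites percent called was 0 on each day. At an unadjusted p under 0.05 the 3 days in order had 3, 9 and 2 members and 63, 129 and 43 of all sites. Median log2 odds ratios of the 68 members were -0.46, 0.93 and 0.25, beside -0.31, 0.69 and 0.22 over all 847 sites. Single samples moved these medians. The day 7 median was -0.30 without the first sample and 0.67 without the second, and the day 3 median 0.40 and 1.53. On day 0 it was -0.45 without the first sample, -0.06 without the second and 0.27 with the cation columns of the second exchanged. The lowest adjusted p of a member was 0.509, 0.113 and 0.566. The change of this ratio between day 7 and day 0 was called in none of the 68 and in 0% of all sites, with a median of 0.60 beside 0.54. That median was 0.15 without the first day 7 sample, 0.98 without the second, 0.35 without the second day 0 sample and 0.03 with that sample's cation columns exchanged. At an unadjusted p under 0.05 that change had 2 members and 85 sites.

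The day 7 excess of K+ over Li+ was largest in Mta2, Traf4, Stub1, Arhgdia and Khsrp, and none of these passed the test. These 5 and the 5 below were ranked among members with 20 or more reads in every cell library. The 36-base Mta2 motif had K+ shares of 13.1% and 8.0% and Li+ shares of 1.81% and 6.58% on day 7 (adjusted p = 0.566, limma). Traf4, a TRAF-family signalling adaptor, had 15.5% and 5.13% in K+ against 4.1% and 4.6% in Li+. The motif of Stub1, the CHIP ubiquitin ligase gene, had 13.4% and 4.73% in K+ against 6.56% and 2.36% in Li+. Arhgdia had 11.4% and 4.22% against 5.47% and 3.21%. Khsrp, an RNA-binding protein of AU-rich decay, had 10.5% and 4.68% against 2.59% and 6.19%. In all 5 the first day 7 sample was the higher in K+, as it was for the pooled members.

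At the other end stood E2f1, Nudt3, Tfrc, Rcc2 and Cldn7. E2f1, a cell-cycle transcription factor, had K+ shares of 5.33% and 0.0% against Li+ shares of 11.6% and 3.64% on day 7. Tfrc, the transferrin receptor gene, had 2.11% and 2.38% in K+ against 2.11% and 7.06% in Li+, although in vitro its K+ share was 73.3% and 79.4%. For the Nudt3 motif, in the gene of a diphosphoinositol polyphosphate hydrolase, the shares were 1.25% and 1.11% in K+ against 3.5% and 4.55% in Li+. Rcc2 had mean shares of 3.53% ± 0.67 in K+ and 4.93% ± 1.0 in Li+, and the tight-junction gene Cldn7 2.46% ± 1.7 and 3.75% ± 2.2 (SD, n = 2). None of these 5 was called either.

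Members with 2 loops of 1 base kept the higher K+ shares in day 7 cells. Their median K+ shares were 8.7% and 5.13% in the 2 day 7 samples, against 6.36% and 3.35% with 1 such loop and 4.18% and 2.98% with none. In Li+ the medians were 3.05% and 6.57% with 2 such loops, 3.29% and 3.88% with 1, and 2.63% and 3.57% with none, so in the second day 7 sample Li+ shares followed the same order. Across members the mean day 7 K+ share was related to the day 7 Li+ share (Spearman 0.59, Pearson r 0.63, n = 219) more closely than to the in vitro K+ share (Spearman 0.37, r 0.30, n = 244). The K+ minus Li+ difference on day 7 had next to no relation to that in vitro (Spearman 0.08, r 0.04, n = 188). These are correlations across motifs of the same libraries.

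The stop signal of K+ over Li+ was lower in day 7 cells than in vitro for nearly all members tested. Of 198 members with 20 or more reads in all 8 libraries of the day 7 samples, 155 were called lower in cells and none higher (limma on log2 odds, adjusted over 2648 sites). Percent called over all sites was 77.2, so the members' 78.3% was near the background. The median log2 difference of the members was -3.37, beside -3.36 over all sites. The called members lay in 138 genes. The other 191 members had too few reads in at least 1 library. The listed sites all have K+ above Li+ in vitro, so the in vitro side was high by selection and a lower value in cells is favoured before any test; the calls are a description of sizes under that limit. With a minimum of 50 reads 90 members could be tested and 76 were called, and 71 or 86 were called when the first or the second in vitro table was left out, all lower in cells.

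The 10 largest differences included motifs that stopped most reads in vitro. Rab5c, a GTPase of early endosomes, had 2 stops in 123 K+ reads and 2 in 60 in day 7 cells, against 257 in 297 and 271 in 320 in vitro. Its Li+ stops were 4 in 165 and 2 in 39 in cells, against 0 in 103 and 0 in 26 in vitro. The difference in log2 odds ratio was -10.13 (SE 0.85, adjusted p = 4.99e-05, limma), a value that rests in part on the 0.5 added to the in vitro Li+ counts of 0. Pip4k2c, a phosphoinositide kinase gene, had K+ shares of 3.19% and 1.75% in cells, against 82.3% and 92.9% in vitro (log2 difference -7.88, adjusted p = 0.000251, limma). Septin9, a cytoskeletal GTPase, had 4.44% and 2.67% in cells, against 75.1% and 77.3% in vitro (log2 difference -6.93). Hnrnpa1, a splicing regulator, had 0 stops in 115 and 1 in 88 K+ reads in cells, against 128 in 232 and 178 in 356 in vitro. Thoc3, a subunit of the TREX mRNA export complex, had 4.98% and 1.52% in cells, against 88.5% and 92.0% in vitro. The remaining 5 were Hmgxb4, the netrin receptor gene Unc5b, the fatty acid desaturase gene Fads2, Zfp36 (tristetraprolin, a decay factor of AU-rich mRNAs) and the 24-base motif of Map4, with log2 differences of -8.46, -7.03, -6.49, -6.33 and -6.31. The Fads2 value is that of a 38-base motif, and the 26-base motif that overlaps it had -3.62.

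**Figure D4:**
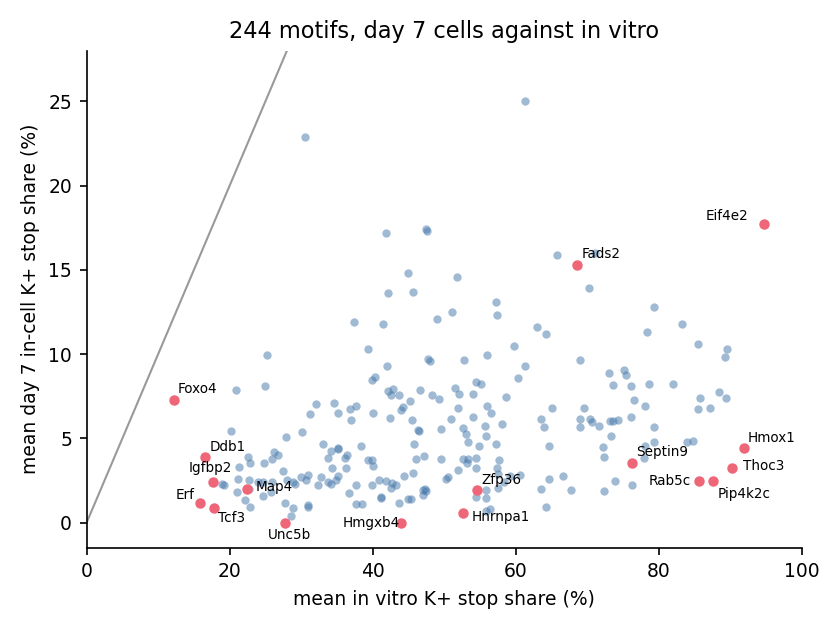
Mean K+ stop share in day 7 cells (vertical axis, percent) against the mean in vitro K+ share (horizontal axis, percent) for the 244 members with 50 or more K+ reads in both in vitro tables and 20 or more in both day 7 samples, with the line of equal shares and named members in red. All 244 points lie below the line, and motifs near 90% in vitro, such as Thoc3 and Hmox1, lie under 5% in cells.

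A smaller group of members kept a K+ over Li+ ratio in cells that did not differ from in vitro by this test. The difference was -0.08 for Ddx6, a helicase of P-bodies (SE 0.60, adjusted p = 0.894, limma). Its K+ shares were 7.69% and 8.55% in day 7 cells, against 29.0% and 20.8% in vitro, and its Li+ shares were 4.47% and 3.37%, against 13.5% and 12.7%. For Flnc, a filamin that crosslinks actin in muscle, the difference was -0.49 (SE 0.55, adjusted p = 0.405, limma), with 12% and 10.3% in K+ in cells and 61.1% and 67.4% in vitro. Its Li+ shares were 2.9% and 4.62% in cells, against 21.8% and 34.2% in vitro. In both genes the K+ share itself was lower in cells, and the in vitro Li+ share was high. Erf, whose motif was among the 5 lowest in vitro, had -0.43 (adjusted p = 0.727, limma), and Traf4 -1.08 (adjusted p = 0.2, limma). A p above the threshold does not show that these ratios were equal.

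Reads over the members changed between day 7 and day 0 in both directions. Of 359 members with enough reads to test, 54 were higher and 22 lower on day 7 (limma-voom on K+ plus Li+ reads of 4990 sites, Benjamini-Hochberg adjustment). The 76 called members, in 71 genes, were 21.2% of those tested, beside 20.3% of all sites. By direction they were 15% higher and 6.13% lower, against 16.1% and 4.21% of all sites. The median log2 change of the members was 0.38, beside 0.51 over all sites. These 2 medians were 0.07 and 0.17 without the second day 0 sample, and 0.58 and 0.72 without the first. Without the first day 7 sample they were 0.21 and 0.28, and without the second 0.25 and 0.37. The other 30 members had too few reads, and members that were listed at 0 on day 0 passed the filter through day 7 alone, so these counts are a description. Reads measure the amount of RNA recovered, and in whole samples fewer cells of a type cannot be told apart from less RNA per cell. The summed ES cell markers were also lower on day 7 and the summed markers of differentiating cells higher, as given above, and their part in these changes was not tested. Leaving out the first day 7 sample left 2 members higher and 0 lower, and leaving out the second left 5 and 5. Leaving out the first day 0 sample gave 102 higher and 21 lower, and leaving out the second 30 and 3. Scaled by total counts alone, 80 members were higher and none lower, and the median log2 change of all sites was 1.18 in place of 0.51, so the directions are relative to that shift.

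The largest gains were in Arl4c, Flnc, Mapkapk2, Gja1 and Myh10 among others. The 2 overlapping motifs of Arl4c, an ARF-like GTPase gene, had 1105 and 325 reads (27-base motif) and 1337 and 419 reads (42-base motif) on day 7, against 0 and 0 and against 21 and 0 on day 0. The first was at least 18.3-fold higher on day 7, set against a floor of 10 reads for each day 0 sample (adjusted p = 0.000832, limma-voom). Flnc had 1592 and 328 reads on day 7, against 14 and 0 on day 0 (log2 change 7.29, SE 1.03, adjusted p = 0.00359, limma-voom). Gja1 (connexin 43) had 889 and 175 reads, against 48 and 0, and Mapkapk2, the p38-activated kinase MK2, 705 and 204, against 36 and 0. Myh10, nonmuscle myosin IIB, had 904 and 330 reads on day 7, against 101 and 0 on day 0. In each of these genes the second day 0 sample, the shallower of that day, was listed at 0. A listed 0 can hide up to 10 reads of a sample, but the fit took it as 0 reads. Log2 changes from such samples may therefore be too large. Unc5b, Itm2c, Plekho1, Kdm2a (a histone H3K36 demethylase) and Foxo4 were the others of the 10 largest, with log2 changes of 5.45, 5.08, 4.64, 4.57 and 4.49. Members listed at 0 throughout day 0 were ranked by their lower bound.

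Among members with deep coverage on both days, Peg10 and Serpinh1 had clear gains. Peg10, a retrotransposon-derived gene under imprinting, was the most-read member, with 15083 and 2812 reads on day 7, against 445 and 77 on day 0. Its CPM were 1217 ± 554 on day 7 and 102.9 ± 52.7 on day 0 (SD, n = 2), a log2 change of 3.51 (SE 0.46, adjusted p = 0.00291, limma-voom). Serpinh1, the collagen chaperone HSP47, had 297.2 ± 57.6 CPM on day 7 and 59.85 ± 26.3 on day 0, a log2 change of 2.48 (SE 0.38, adjusted p = 0.0046, limma-voom). Both were listed with reads in all 6 samples.

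The losses were smaller in log2 change, and how many were called depended on single samples, as given above. Several of the gains rest on day 0 samples listed at 0, so the sizes of gains and losses are not directly comparable. Mlf2 had 78.35 ± 12 CPM on day 7 and 246.1 ± 47.8 on day 0, a log2 change of -1.68 (SE 0.28, adjusted p = 0.00658, limma-voom). Both E2f1 motifs fell, by 1.66 and 1.16 on the log2 scale, with 26.74 ± 8.24 CPM on day 7 and 78.54 ± 7.38 on day 0 for the first (SD, n = 2). Cdk16, a cyclin-dependent kinase gene on the X chromosome, fell by 1.42 in 1 motif and by 1.36 in the motif that overlaps it. Aldh2 (mitochondrial aldehyde dehydrogenase), Rarg (retinoic acid receptor gamma), Eif4e2, Tbc1d10a, Glmp, Abhd8 and both overlapping Nudt3 motifs were the others named by the same rank. Their log2 changes were -1.35, -1.33, -1.32, -1.33, -1.41 and -1.77, and -1.03 and -1.33 for Nudt3. Under scaling by total counts none of these 22 members was called lower.

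Few changes in reads were called between day 3 and day 0. At an unadjusted p under 0.05 (limma-voom) there were 36 members and 431 of 4990 sites. With 2 samples a day, few calls do not show that the days were alike. Of 359 members 1 was called, the 27-base Arl4c motif with 53 and 22 reads on day 3, against 0 and 0 on day 0 (at least 3.66-fold higher, adjusted p = 0.0424, limma-voom), beside 0.0802% of all sites (0.0601% higher and 0.02% lower). It was not called when any 1 of the 4 samples was left out; without the first day 3 sample another member was called. Between day 7 and day 3, 38 members were higher and 5 lower on day 7, and percent called over all sites was 12.1 (10.4 higher and 1.66 lower). The median log2 change was 0.23, beside 0.28 over all sites. Leaving out the first day 7 sample left no member called, and without the second there were 11. Without the first or second day 3 sample there were 72 or 12. Peg10 had 1217 ± 554 CPM on day 7 and 308.6 ± 56.1 on day 3, and Serpinh1 297.2 ± 57.6 on day 7 and 54.71 ± 19 on day 3 (SD, n = 2), log2 changes of 1.91 and 2.41. The 42-base Arl4c motif had 1337 and 419 reads on day 7, against 35 and 55 on day 3. These 3 genes were read in all 4 samples. The motif of Amot shown above, in the gene of a scaffold of Hippo signalling, had 450 and 64 reads on day 7. It was listed at 0 and 0 on day 3 and was at least 5.18-fold higher on day 7. All of its cell reads were on day 7, so it entered the test through day 7 alone and had to differ. The other Amot motif was at least 3.66-fold higher and that of Wls, which carries Wnt ligands to the cell surface, at least 4.91-fold. Plekho1 and Pakap, also listed at 0 on day 3, were at least 3.31-fold and 6.52-fold higher. Members listed at 0 on day 3 did not pass the filter through that day, so their calls are a description. Yap1, the effector of Hippo signalling, had 190 and 62 reads on day 7, against 14 and 0 on day 3, and Septin11 100 and 26, against 6 and 0. The falls between day 7 and day 3 were in both E2f1 motifs, Rarg, Mlf2 and the adhesion receptor gene Adgrl1, by 1.81, 1.22, 1.59, 1.41 and 1.33 on the log2 scale. The comparisons of day 3 with day 0 and of day 7 with day 3 share the day 3 samples.

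Few members had enough K+ stops for a test of the stops themselves. Of 27 members tested, 3 were higher and 1 lower on day 7 against day 0 (limma-voom on K+ stops of 327 sites), or 14.8%, beside 16.2% of all sites (10.1% higher and 6.12% lower). Peg10 had 363 and 72 K+ stops on day 7, against 7 and 1 on day 0 (log2 change 3.78, SE 0.79, adjusted p = 0.0117, limma-voom). Flnc had 67 and 16 on day 7, against 0 and 0 on day 0, at least 1.75-fold higher over the floor of 5 stops for each sample (adjusted p = 0.00218, limma-voom). It had no stop on day 3 either, so it entered the test through day 7 alone and had to differ. Podxl, a sialomucin of epithelia, had 37 and 17, against 4 and 0 (log2 change 2.38, adjusted p = 0.0296, limma-voom). Like Flnc, Podxl passed the filter through day 7 alone, so its calls against day 0 and against day 3 are a description. Mlf2 had 6 and 7, against 28 and 2, raw counts that overlap (log2 change -2.73, adjusted p = 0.0296, limma-voom). In these 4 genes the reads over the site differed between the days in the same direction as the stops, and the reads of Podxl missed the threshold (551 and 192 on day 7, 56 and 0 on day 0, adjusted p = 0.0617, limma-voom). Leaving out either day 0 sample or the second day 7 sample gave 2 calls, and leaving out the first day 7 sample gave 1. Day 7 against day 3 had 2 members higher, Flnc (at least 1.92-fold) and Podxl (at least 1.46-fold), both without stops on day 3, beside 6.12% of all sites called and 5.2% called higher, and none was called without the first or without the second day 7 sample. Day 3 against day 0 had no member called, 1 at an unadjusted p under 0.05, and 0.612% of all sites were called.

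Among the 10 most-read members, overlapping motifs of 1 gene counted once, 4 had day 7 and day 0 reads that overlapped. The 42-base Ddb1 motif had 863.9 ± 104.0 CPM on day 7 and 848.3 ± 66.4 on day 0 (SD, n = 2). Fkbp4, an Hsp90 co-chaperone, had 678.5 ± 87.9 CPM on day 7 and 722.5 ± 30.9 on day 0. Igfbp2 had 630.5 ± 88.0 CPM on day 7 and 582.1 ± 95.6 on day 0, and Bsg (basigin, a membrane glycoprotein) 278.7 ± 45.3 on day 7 and 300.5 ± 35.5 on day 0. The days overlapped in all 4. Vcp, an AAA ATPase, had 483.7 ± 97.2 CPM on day 7 and 857.1 ± 19.6 on day 0, which missed the threshold (adjusted p = 0.0535, limma-voom), and Clic1, a chloride intracellular channel gene, had 354.6 ± 76.6 on day 7 and 204.3 ± 27.0 on day 0 (adjusted p = 0.0719, limma-voom). Bax, the pro-apoptotic BCL-2 family member, fell by 0.94 (adjusted p = 0.0325, limma-voom) and Maz, a zinc finger transcription factor, by 1.02 on the log2 scale (adjusted p = 0.0437, limma-voom). The Vcp motif had the highest K+ share of these 10 in day 7 cells, 16.2% and 7.53%, but its Li+ shares were as high, 14.4% and 7.56%. The Bax motif had 2.23% and 2.22% in K+ in day 7 cells, against 44.5% and 35.4% in vitro.

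Few genes of the pathway lists held a member. None of 39 genes of pluripotency and the germ line and none of 27 genes of streak, mesoderm and endoderm held a member. Members are 7.02% of all sites, and the share of all genes that hold one is not given here. Of 29 neural genes only Map1b did, with 50 and 14 reads on day 7, against 0 and 0 on day 0. It entered the test through day 7 alone. Of 31 genes of extracellular matrix and adhesion, Col1a1 (a fibrillar collagen chain) was called higher, also with reads on day 7 alone, and Podxl did not pass the test. Of 34 cytoskeletal genes, Flnc and Myh10 rose and Arhgdia fell, and of 34 stress and immediate early genes Zfp36, listed at 0 on day 0, was called higher and Ier2 did not pass. The list of 66 chromatin genes held 7 members in 6 genes (Cbx7, Chd4, Chd8, Kmt2d, Mta2 and Smarcd1). None of these members was called between day 7 and day 0, and their median log2 change was -0.20. The list does not hold every chromatin gene with a member. Kdm2a, named above among the largest gains, is not on it. Of 8 members in 7 of 75 genes of RNA binding and processing, Ddx6 rose (log2 change 1.30, adjusted p = 0.0498, limma-voom), and the list's median was 0.69. Over all sites the median was 0.51, and 20.3% were called between day 7 and day 0. The lists hold few members and were not tested against that share.

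K+ shares of the RNA-binding genes in cells were mixed, with Eif4a1 high and Ddx5 and Hnrnpa1 below the member medians of 5.56% and 3.34% in the 2 day 7 samples. Eif4a1, the helicase of translation initiation, had 34.1% and 15.8% in K+ on day 7 (14 stops in 41 reads and 9 in 57), against 9.86% and 12.9% in Li+. In vitro it had 62.4% and 60.2% in K+ and 41.0% and 31.2% in Li+. Igf2bp1, which binds and stabilises mRNAs, had 9.49% and 5.45% in K+ on day 7 against 3.9% and 8.0% in Li+, and the RNA helicase gene Ddx5 3.33% and 3.17% against 1.81% and 5.34%. In vitro the K+ shares of these 2 motifs were 58.6% and 58.8%, and 55.1% and 59.7%. In the chromatin remodeller genes, Chd4 had 1.54% and 1.6% in K+ on day 7, Chd8 0.763% and 2.0%, and Smarcd1 2.82% and 2.33%. Their Li+ shares were 1.26% and 3.29%, 1.7% and 4.76%, and 3.47% and 2.68%. Of these 6 motifs only that of Eif4a1 had both K+ shares above both Li+ shares on day 7. The motif of Ddx6 and the 36-base motif of Mta2, in the same lists and given above, had this too.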

How the data were processed

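RT stops and coverage were read from 8 tables of 5538 sites each, 6 of cell samples and 2 of RNA in vitro, in which the authors deposited whole-number stop and coverage counts for K+ and Li+. The tools named per the submitters' processing notes are SAMtools, STAR and cutadapt, and the builds GRCm38.p6 and mm10. Deposited motif starts count from 0 (199 of 199 promoter matches) and were raised by 1. The members and lists were chosen with earlier results of these data known.

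K+ stops and K+ plus Li+ reads were tested over all sites with limma-voom (limma 3.58.1, R 4.3.3; TMM scaling; a count of 10 in 2 libraries and 15 in all), and stop odds with limma on log2 odds (0.5 added, 20 reads in every library). Adjusted p-values are Benjamini-Hochberg, threshold 0.05, and CPM are TMM-scaled. Fits between days hold all 3 days, which share 1 estimate of the spread; the fit against RNA in vitro holds the day 7 samples. Other scalings, filters, minimums, a replicate block and left-out samples were tried. The main fits of stop odds did not pair the K+ and Li+ libraries of 1 sample. With the sample as a block, no member was called within a day, and 153 were called for day 7 cells against in vitro. Named members were, per test and direction, up to 10 called with the largest log2 change (groups at 0 by their bound), the 10 most read, the 5 highest and 5 lowest in vitro and by day 7 K+ minus Li+ share, and well-covered list genes. Deviations of same-numbered samples from their day means correlated at 0.239, -0.14 and -0.223 over 1926 sites. The main fits did not pair samples by number, and these correlations cannot show whether same-numbered samples belong together. The labels do not say whether replicates are separate cultures, so p-values may measure technical spread. PCR reads are not independent molecules. Scripts were tested on simulated data.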

Additional observations from a re-analysis of the deposited data

Results flagged for a closer look

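The K+ minus Li+ stop share was set between days in 33 contrasts, of the pooled members and of the 10 motifs ranked by that share on day 7, and in 7 (21.2%) every sample of 1 day lay above 0 and every sample of the other below. Among all 847 sites with enough reads the same was found in 15.3% of contrasts, and among the 68 members of these in 14.7%. The ranking used the day 7 values, so contrasts with day 7 partly restate it. The difference between days was not tested in this form, and limma called no member for the change of the K+ over Li+ odds between day 7 and day 0. Over the pooled members the share difference was 5.4 and 1.54 percentage points on day 3, against -0.39 and -1.97 on day 0, so the means differed by 4.65 points. The share difference had the same signs on day 3 and day 0 in the pooled canonical, bulged and two-quartet motifs of 3′ UTRs. In Tfrc it was 23.1 and 1.47 points on day 3, against -9.64 and -4.35 on day 0, a gap of 19.3, and on day 7 it was -0.000529 and -4.68, -14.6 points from day 3. In Arhgdia it was 5.91 and 1.01 on day 7, against -0.119 and -0.0256 on day 0, a gap of 3.53. The E2f1 motif had -6.24 and -3.64 on day 7, against 1.5 and 4.93 on day 3, a gap of -8.16. Nudt3 had -2.25 and -3.43 on day 7, against 0.192 and 4.61 on day 0, a gap of -5.24. Rcc2 had -1.64 and -1.17 on day 7, against 2.39 and 0.498 on day 0, a gap of -2.85.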

How the results depend on the processing

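With 2 samples a day, single libraries set the counts. Over the samples left out in turn, members called by reads ranged from 2 to 123 for day 7 against day 0 (76 with all samples), from 0 to 1 for day 3 against day 0 (1) and from 0 to 72 for day 7 against day 3 (43). Members called by K+ stops ranged from 1 to 2 for day 7 against day 0 (4) and from 0 to 3 for day 7 against day 3 (2). With no filter on low counts the K+ stops of these 2 comparisons gave 11 and 12 calls. Scaled by total counts alone, K+ stops gave 2 calls for day 3 against day 0 and 4 for day 7 against day 3, and reads gave 2 for day 3 against day 0. That scaling split the reads of day 7 against day 0 into 80 higher and 0 lower in place of 54 and 22, and of day 7 against day 3 into 46 and 0 in place of 38 and 5. With the cation columns of the second day 0 sample exchanged, K+ stops of day 7 against day 3 gave 4 calls. With the replicate number as a block, the reads gave 43 calls for day 7 against day 0 and 0 for day 3 against day 0, and the split by direction was 38 higher and 5 lower, and 34 and 3 for day 7 against day 3; the block moved no other total by over 1.5 times. A minimum of 50 reads gave 76 members lower in day 7 cells than in vitro. The in vitro median was 51.91% and 48.43% without the first and the second table. For day 7 cells against in vitro the calls ranged from 71 to 167 (155) over the 4 tables left out in turn, all lower in cells, where leaving out an in vitro table was added after seeing the data. The causes were not tested, except that stricter minimums and fewer samples leave fewer sites or libraries to test. K+ against Li+ odds within a day called no member under any alternative. Of 466 values of named members under alternatives, 337 kept their side of the threshold, 129 lost the call and none changed sign. Shallow day 0 and day 3 libraries, with 55 to 195 members listed at 0 K+ reads, limit what could be called.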
